A study of Mus musculus with 4 samples.

Results

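The protein folding machinery of the endoplasmic reticulum (ER) was examined through 10 genes of the unfolded protein response: Hspa5, Dnajb9, Sdf2l1, Manf, Hsp90b1, Calr, Pdia4, Creld2, Herpud1 and Xbp1. They were taken by symbol, and all 10 were found among the 56691 genes of the count tables. The poly(A) RNA libraries came from Ter119+ cells of mouse bone marrow, labelled as erythroid stage with a time label of 3 weeks, 2 from Med16 fl/fl mice (floxed alleles of the Mediator subunit gene Med16) and 2 from Med16 KO mice. The comparison asks how these genes differed in the erythroid fraction after loss of Med16. The driver of the deletion, the age of the mice, the exons removed, and whether each library is a separate mouse are not stated in the labels, so the p values below reflect only how these 4 libraries vary, and that variation may be technical.

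Proteins that enter the secretory pathway fold in the ER with the help of chaperones, lectins and disulphide isomerases. When unfolded chains accumulate, the sensors IRE1, PERK and ATF6 start the unfolded protein response: IRE1 splices the Xbp1 mRNA so that it encodes an active transcription factor, ATF6 is cleaved into one, and PERK slows translation and raises ATF4. XBP1 and ATF6 bind ER stress response elements (ERSE) in chaperone promoters together with NF-Y. Professional secretory cells such as plasma cells depend on XBP1 and hold large amounts of these proteins, whereas red cell precursors dismantle their ER as they mature. Counts per gene do not separate the spliced from the unspliced Xbp1 mRNA.

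The stretches just before the RefSeq transcription start (build GRCm38.p6) are shown for the genes with an ERSE or its variant ERSE-II and, for contrast, for Sdf2l1, whose mRNA had the largest fold change of the 10 but whose promoter holds none. Capitals mark the fixed letters of a match on either strand. The motifs searched were the ERSE (CCAAT and CCACG with 9 bases between them), the ERSE-II (ATTGG and CCACG with 1 base between them), the unfolded protein response element core (TGACGTGG) and the ATF4-C/EBP element (TGATGCAA).
Hspa5 (chr2:34771940-34772089, strand +): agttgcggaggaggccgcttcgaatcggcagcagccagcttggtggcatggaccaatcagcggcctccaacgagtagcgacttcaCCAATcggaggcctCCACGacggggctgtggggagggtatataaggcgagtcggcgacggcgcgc
Hsp90b1 (chr10:86705445-86705694, strand -): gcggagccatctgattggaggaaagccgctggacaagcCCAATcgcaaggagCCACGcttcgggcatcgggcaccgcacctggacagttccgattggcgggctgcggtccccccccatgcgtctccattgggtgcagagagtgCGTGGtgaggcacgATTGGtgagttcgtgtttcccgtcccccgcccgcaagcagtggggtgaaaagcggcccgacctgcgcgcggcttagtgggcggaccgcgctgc
Calr (chr8:84846932-84847181, strand -): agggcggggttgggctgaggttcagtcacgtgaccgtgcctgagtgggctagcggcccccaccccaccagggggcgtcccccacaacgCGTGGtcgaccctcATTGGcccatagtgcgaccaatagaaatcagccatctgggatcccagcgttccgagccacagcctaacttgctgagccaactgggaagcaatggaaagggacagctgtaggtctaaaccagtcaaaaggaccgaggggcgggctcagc
Creld2 (chr15:88819496-88819645, strand +): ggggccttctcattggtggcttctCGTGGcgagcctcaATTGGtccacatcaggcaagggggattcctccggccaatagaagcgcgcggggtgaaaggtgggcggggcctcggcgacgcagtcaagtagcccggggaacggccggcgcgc
Herpud1 (chr8:94386279-94386428, strand +): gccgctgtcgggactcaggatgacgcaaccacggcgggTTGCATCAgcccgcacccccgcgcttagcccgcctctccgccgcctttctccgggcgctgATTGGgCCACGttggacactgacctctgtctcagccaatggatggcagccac
Sdf2l1 (chr16:17132384-17132533, strand -): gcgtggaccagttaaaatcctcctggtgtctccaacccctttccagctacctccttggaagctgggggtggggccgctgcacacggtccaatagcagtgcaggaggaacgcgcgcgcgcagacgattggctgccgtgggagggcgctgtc
A window of 250 bases before to 50 after the start was available for 9 of the 10 genes, all but Manf. An ERSE stood in 4 of these 9 windows (Hspa5, Hsp90b1, Calr and Creld2), against 39 (0.119%) of all 32851 windows of the same length. Hsp90b1 held a pair of them, and in Hspa5 the match ran from base -65 to base -47, counted from the start. Herpud1 held the ERSE-II, found in 0.0365% of all windows, and also the ATF4-C/EBP element, found in 0.895%. The unfolded protein response element core occurred in none of the 9 windows and in 0.676% of all. With 1 mismatch allowed in the last 5 bases of the ERSE, Herpud1 and Pdia4 joined the first 4, and the share of all windows was 0.998%. A letter match is a description of the sequence and shows no binding.

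Counts assigned to genes came to between 6749196 and 7216333 per library. Genes with any count numbered 18947 and 19016 in fl/fl and 16892 and 16479 in KO, and the cause of that difference was not tested. Med16 itself had 164 and 127 counts in fl/fl and 16 and 30 in KO, so all 4 followed their labels. The fl/fl libraries differed from each other by a chi-square statistic per degree of freedom of 2.73 and the KO libraries by 6.63, against 18.3 to 20.3 between genotypes. Erythroid markers summed to between 185954 and 196989 CPM (assigned counts scaled to a common library size by TMM) in every library, the highest of the marker lists. Markers of other marrow cells were also present, and some of these lists moved with genotype. Plasma cell markers summed to 1127 and 1091 CPM in fl/fl and to 4451 and 4494 CPM in KO, and promyelocyte markers to 2244 and 2232 CPM and then to 4794 and 4932 CPM. Most of the plasma cell sum in every library came from Ighm, Igkc and Jchain, and other genes of that list did not all follow.

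**Figure D1:**
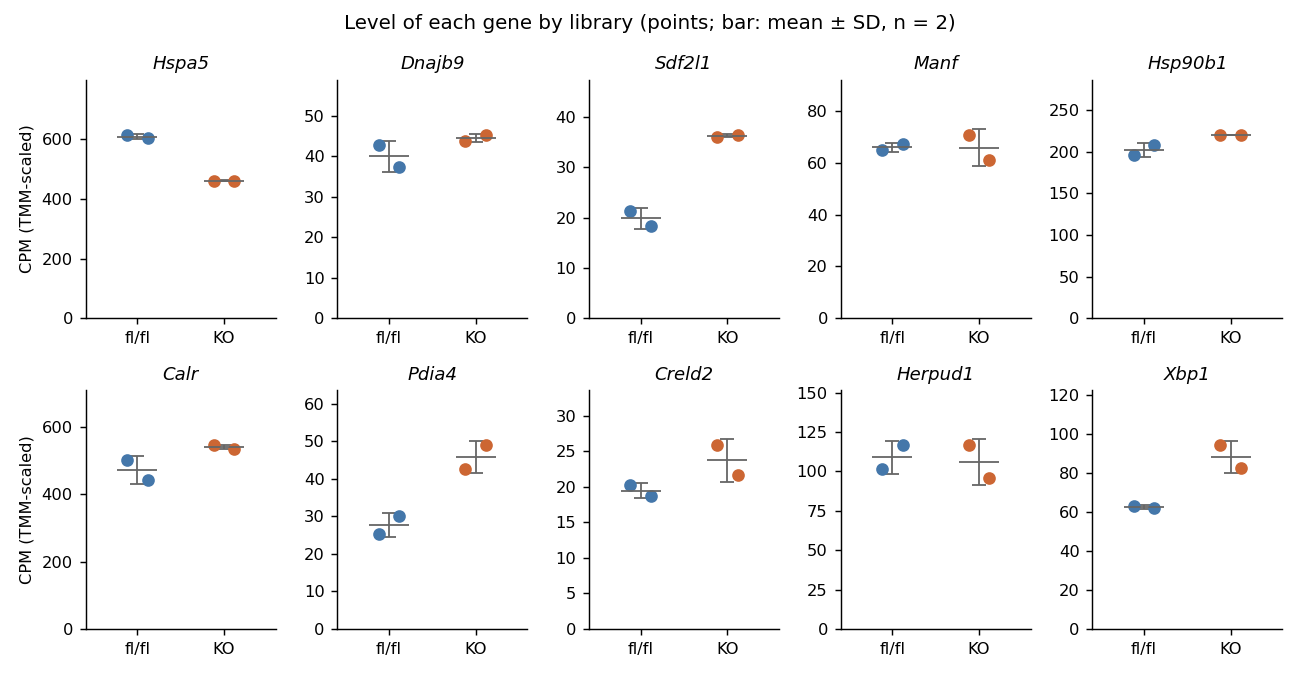
CPM of each of the 10 genes in each library (vertical axes from 0, 1 panel per gene), with the fl/fl libraries in blue and the KO libraries in orange, the horizontal bar giving the mean and the whiskers the SD of 2 libraries. Hspa5 lay at 615 and 602 CPM in fl/fl and at 461 and 460 CPM in KO, while Sdf2l1, Pdia4 and Xbp1 lay higher in both KO libraries.

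The 10 genes did not move as a block. Hspa5, which encodes BiP, fell in Med16 KO, whereas Sdf2l1, Pdia4, Xbp1 and Calr rose and the other 5 did not pass the test. All 10 passed the filter on low counts. The 4 that rose and the 1 that fell compare with 8.50% and 9.89% of the 13052 genes tested that were called higher and lower at an adjusted p under 0.05 (edgeR quasi-likelihood test, Benjamini-Hochberg adjustment over all genes, 1109 and 1291 genes). Scaled by library size alone, 1365 genes were higher and 1055 lower. In 8 of the 10 the libraries of the 2 genotypes did not overlap, with KO above fl/fl in 7 and below in 1, while 57.6% of all genes tested did not overlap (29.4% above and 28.2% below). The median log2 fold change was 0.17, against 0.02 over all genes tested.

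Hspa5 is the Hsp70 chaperone of the ER lumen, which holds unfolded chains and keeps the stress sensors inactive. It had 4341 and 4152 counts in fl/fl and 3284 and 3126 in KO, or 615, 602, 461 and 460 CPM. Both KO libraries were lower than both fl/fl libraries, and the gap was many times the spread within either genotype. The mean fell from 608 ± 8.83 to 461 ± 0.936 CPM (means with SD over n = 2 libraries here and in what follows), and so fell by 24.3%. The log2 fold change was -0.40 (SE 0.05, 95% interval -0.50 to -0.30, edgeR adjusted p = 2.45e-05). Leaving out each library in turn gave values from -0.43 to -0.40, all past the threshold, and the call ended only when a spread of 0.2 (biological coefficient of variation) was assumed (adjusted p = 0.50). That assumption also ended the calls of the other 4. In bulk libraries such as these, fewer cells of a type and less RNA per cell cannot be told apart.

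BiP works with J-domain proteins and other lumenal partners. Sdf2l1, a partner of the J-domain protein ERdj3 that helps keep clients soluble, had 151 and 127 counts in fl/fl and 257 and 248 in KO, or 21.4, 18.4, 36.1 and 36.5 CPM. The KO libraries lay close together, far above both fl/fl libraries. Its mean rose from 19.9 ± 2.09 to 36.3 ± 0.277 CPM, with a log2 fold change of 0.87 (SE 0.18, 95% interval 0.48 to 1.25, edgeR adjusted p = 0.00297). Counting error alone gave 95% Poisson intervals of 128 to 177 and 106 to 151 counts in fl/fl and of 227 to 290 and 218 to 281 in KO. The call ended without fl/fl library 2, at 0.75 (adjusted p = 0.087).

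Dnajb9 encodes ERdj4, a J-domain protein that passes clients to degradation and restrains IRE1. It stood at 42.8 and 37.3 CPM in fl/fl and at 43.8 and 45.3 CPM in KO. The genotypes did not overlap, but the gap between them was smaller than the difference between the fl/fl libraries, and the log2 fold change of 0.15 (95% interval -0.16 to 0.47, edgeR adjusted p = 0.53) did not pass the threshold. Manf, a small secreted ER protein that binds BiP, stood at 64.8 and 67.3 CPM in fl/fl and at 70.9 and 61.0 CPM in KO. Here the fl/fl values lay between the KO values. The log2 fold change was -0.00095 (95% interval -0.26 to 0.25, edgeR adjusted p = 0.998). The exons of Manf share 4.14% of their length with Dcaf1 and 4.71% with 4930524O07Rik, both on the opposite strand in the GENCODE M21 annotation. The strand setting of the counting is not given in the sources used here, so reads of Manf and of its partners cannot be told apart there.

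Among the other chaperones, Calr encodes calreticulin, a calcium-binding lectin chaperone that retains glycoproteins until they fold. It had 3541 and 3055 counts in fl/fl and 3881 and 3642 in KO, or 501, 443, 545 and 536 CPM. Both KO libraries were higher, but fl/fl library 1 lay nearer to them than to fl/fl library 2. The log2 fold change was 0.19 (SE 0.06, edgeR adjusted p = 0.031). The call ended without fl/fl library 2 at 0.10 (adjusted p = 0.60), under an offset for transcript length at 0.12 and under one for GC content at 0.17.

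Hsp90b1 encodes GRP94, the Hsp90 of the ER, whose clients include integrins and Toll-like receptors. It stood at 196 and 208 CPM in fl/fl and at 220 and 220 CPM in KO. Both KO libraries were higher by a small margin, and the log2 fold change of 0.12 (SE 0.07, 95% interval -0.02 to 0.27, edgeR adjusted p = 0.25) did not pass the threshold. With a GC content offset it was 0.29 and past the threshold (adjusted p = 0.0082). On the opposite strand 1810014B01Rik shares 10.3% of its exon length, with 755 and 768 counts in fl/fl and 838 and 771 in KO, so the Hsp90b1 counts are uncertain in that stretch.

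Disulphide exchange was represented by Pdia4 and Creld2. Pdia4 encodes ERp72, a protein disulphide isomerase, and had 179 and 207 counts in fl/fl and 304 and 332 in KO, or 25.3, 30.0, 42.7 and 48.8 CPM. The lower KO library was well above the higher fl/fl library. Its mean rose from 27.7 ± 3.31 to 45.8 ± 4.35 CPM, with a log2 fold change of 0.73 (SE 0.16, 95% interval 0.38 to 1.08, edgeR adjusted p = 0.00558). The call ended without fl/fl library 1, at 0.59 (adjusted p = 0.14).

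Creld2, a stress-induced ER protein with isomerase activity, stood at 20.2 and 18.7 CPM in fl/fl and at 25.8 and 21.6 CPM in KO. The KO libraries were higher but differed from each other by more than the lower of them differed from fl/fl. The log2 fold change was 0.29 (95% interval -0.15 to 0.72, edgeR adjusted p = 0.38), an interval that holds both no change and the value found for Xbp1.

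Herpud1 encodes a membrane protein with a ubiquitin-like domain that takes part in ER-associated degradation and is a known target of ATF6, XBP1 and ATF4. It stood at 101 and 116 CPM in fl/fl and at 116 and 95.5 CPM in KO. The genotypes overlapped, and the gap within KO was wider than that within fl/fl. The log2 fold change was -0.04 (95% interval -0.27 to 0.19, edgeR adjusted p = 0.86), and it was positive when scaled by library size alone (0.016), without fl/fl library 2 (0.055) and in the absence of KO library 2 (0.084).

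Xbp1 had 446 and 426 counts in fl/fl and 670 and 560 in KO, or 63.1, 61.8, 94.1 and 82.4 CPM. Both KO libraries were higher, and the fl/fl libraries differed by less than 2 CPM. Its mean rose from 62.5 ± 0.967 to 88.2 ± 8.28 CPM, an increase of 41.3%. The log2 fold change was 0.50 (SE 0.11, 95% interval 0.26 to 0.74, edgeR adjusted p = 0.0052). The value was 0.50 and 0.47 without fl/fl library 1 and 2, where the call ended (adjusted p = 0.054 and 0.080).

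**Figure D2:**
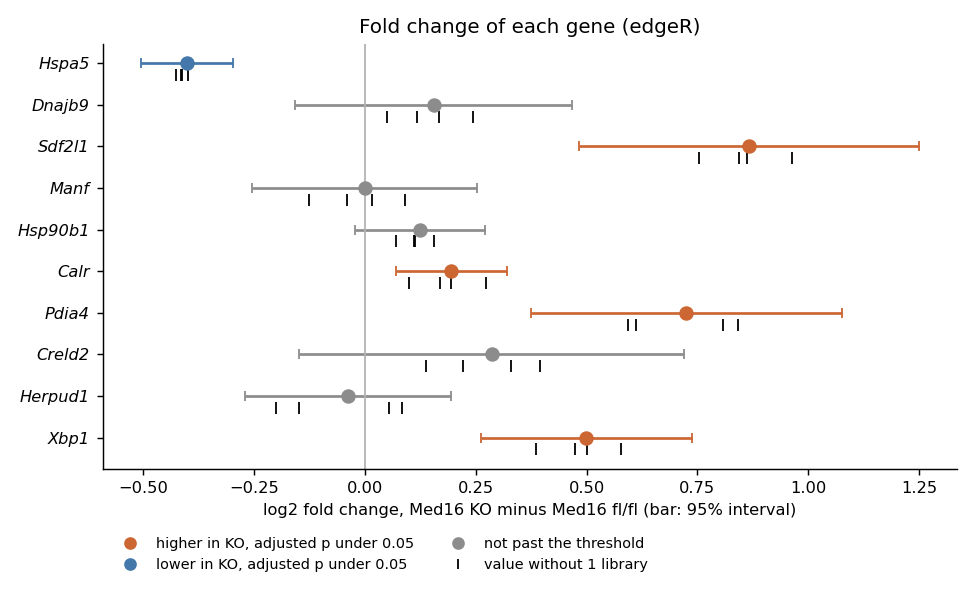
Log2 fold change of each gene in Med16 KO against Med16 fl/fl (horizontal axis, points, with 95% intervals from the edgeR fit), in orange or blue where the adjusted p was under 0.05 and in grey elsewhere, with the values obtained without each library as ticks underneath. The interval of Hspa5 (-0.50 to -0.30) lies below 0 and those of Sdf2l1, Pdia4, Xbp1 and Calr lie above it.

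The summed level of the 10 genes hardly differed, while its make-up did. The sum was 1651 and 1603 CPM in fl/fl and 1656 and 1606 CPM in KO. Hspa5 supplied 37.2% and 37.6% of it in fl/fl and 27.8% and 28.6% in KO. The sum of the other 9 was 1036 and 1001 CPM in fl/fl and 1195 and 1147 CPM in KO. A ratio taken within a library does not depend on how libraries are scaled. The log2 ratio of Sdf2l1 to Hspa5 was -4.85 and -5.03 in fl/fl and -3.68 and -3.66 in KO, and that of Xbp1 to Hspa5 was -3.28 in each fl/fl library and -2.29 and -2.48 in KO. The ratio of Calr to Hspa5 changed sign, from -0.29 and -0.44 to 0.24 and 0.22, in CPM not scaled by exon length. Per kilobase of exon, Calr was already above Hspa5 in fl/fl (174 and 154 against 145 and 142 CPM). Even Herpud1, whose own level overlapped, was higher relative to Hspa5 in both KO libraries (-1.99 and -2.27) than in both fl/fl libraries (-2.60 and -2.37). These ratios share Hspa5, so each holds its fall as well as any change of the other gene, and they are not separate results.

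**Figure D3:**
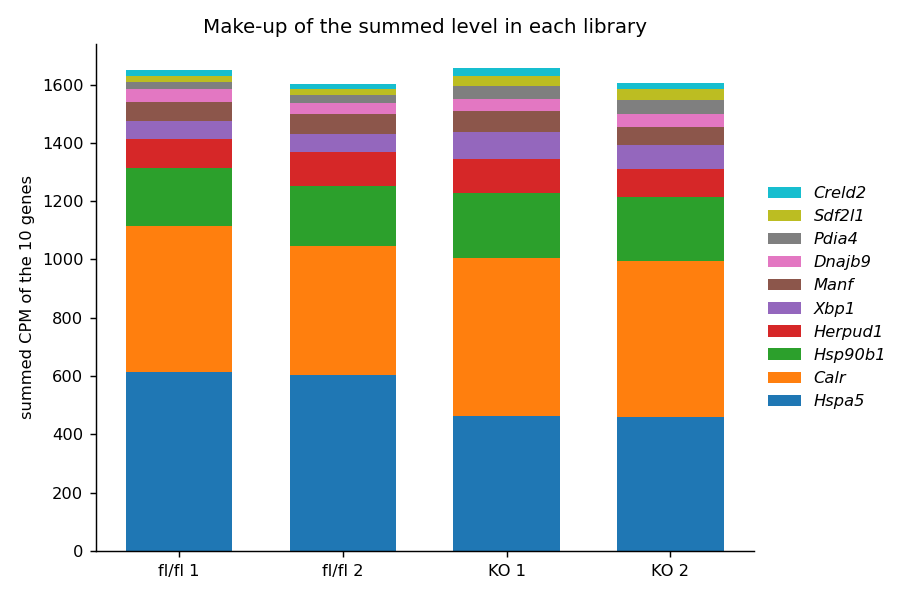
Summed CPM of the 10 genes in each library (vertical axis from 0), split by gene. The height of the bars stays between 1603 and 1656 CPM, and the Hspa5 part shrinks from 37.2% and 37.6% in fl/fl to 27.8% and 28.6% in KO.

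Levels between genes were compared as CPM per kilobase of exon (GENCODE M21 union of exons). In fl/fl, Calr was highest at 174 and 154 and Hspa5 next at 145 and 142 CPM per kilobase, and these did not overlap. Hsp90b1 (48.6 and 51.5) and Herpud1 (43.4 and 49.9) came next and overlapped each other. Below them Xbp1, Manf, Sdf2l1, Dnajb9 and Creld2 formed a run from 19.4 down to 13.7 CPM per kilobase in which each gene overlapped the next, and Pdia4 was lowest at 10.6 and 12.5. In KO the gap between Calr (189 and 186) and Hspa5 (109 and 109) was wider. Sdf2l1 (32.6 and 32.9) stood above Xbp1 (29.0 and 25.4), and Pdia4 (17.8 and 20.4) overlapped Manf and Creld2 and lay just above Dnajb9. Those 3 genes ranged from 15.8 to 20.1.

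The rest of the pathway was described from 6 further lists of genes. Their counts are to be read beside the 8.50% and 9.89% of all genes tested that were called higher and lower. A list near those shares does not stand apart from genes at large. Among the calls in these lists, those of Txndc5, Creld1, Derl3 and Asns remained when the spread was set to 0.2 and the others ended. Of 18 genes of disulphide exchange, 4 rose and 1 fell (median 0.22, as a log2 fold change here and for the lists that follow). Txndc5, a protein disulphide isomerase with several thioredoxin domains, rose from 34.1 and 35.5 CPM to 90.0 and 94.9 CPM (log2 fold change 1.41, SE 0.12, edgeR adjusted p = 6.63e-07). P4hb, the archetypal isomerase PDI, rose from 216 and 208 to 292 and 286 CPM (0.45, SE 0.06), and Pdia3, the isomerase that works with calreticulin and calnexin, from 166 and 193 to 244 and 257 CPM (0.48, SE 0.08). Creld1, a relative of Creld2, was the other gene that rose (1.45, SE 0.44), a call lost under the GC content offset (1.21), without fl/fl library 1 (1.72) or 2 (1.20) and in the absence of KO library 2 (1.09). The membrane thioredoxin Tmx1 fell by 0.43 on the log2 scale. Creld1 and Tmx1 were chosen after their values were seen.

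The other chaperones and folding enzymes went both ways, with 1 of 19 higher, 2 lower and a median of -0.06. Canx encodes calnexin, the membrane-bound counterpart of calreticulin, and fell from 265 and 254 CPM to 208 and 216 CPM (log2 fold change -0.29, SE 0.07, edgeR adjusted p = 0.0051), a call lost under the GC content offset (-0.13) and without fl/fl library 1 (-0.28). The cyclophilin gene Ppib fell by 0.24 on the log2 scale, a call lost when scaled by library size alone at -0.18 and without fl/fl library 1 at -0.22 or 2 at -0.28. Cnpy3, which helps GRP94 fold Toll-like receptors, rose by 0.63, and that call was lost without fl/fl library 1 (0.66) or 2 (0.58), in the absence of KO library 1 (0.38) and under the offsets for GC content (0.41) and length (0.53). The direct BiP partners Hyou1, its exchange factor, and Dnajb11, which encodes ERdj3, had log2 fold changes of 0.25 and 0.09 that did not pass the threshold (without KO library 1, Hyou1 passed at 0.32 and Dnajb11 was at -0.042), and both were chosen after their values were seen.

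Of 9 tested genes for the sensors, the related membrane factors and their processing, 1 was higher and none lower by the edgeR test, with a median of 0.20. At an unadjusted p under 0.05, 3 were higher and none lower, and DESeq2 called 1 higher and none lower. The one called was Atf6b, a relative of ATF6, at 35.0 and 34.8 CPM in fl/fl and 56.2 and 50.9 CPM in KO (log2 fold change 0.62). That call was lost without either fl/fl library at 0.61 and under the GC content offset at 0.33. Mbtps2, a protease that cleaves ATF6, stood at 4.81 and 6.96 CPM in fl/fl and at 9.13 and 13.5 CPM in KO (0.94, SE 0.35, edgeR adjusted p = 0.074), and it passed without KO library 1 (1.19), under the GC content offset (1.14) and with the replicate number as a block (0.94). Ern1, which encodes the IRE1 that splices Xbp1, stood at 13.9 and 21.9 CPM in fl/fl and at 23.5 and 27.9 CPM in KO (0.52, SE 0.23, edgeR adjusted p = 0.14). Without KO library 1 its value was 0.63 and past the threshold.

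In the list of PERK and integrated stress response targets (PERK and ATF4 targets in short), genes fell where they passed the edgeR test. The list also holds Atf4 itself, and the activity of PERK was not tested. Of 10 tested, 5 were lower and none higher by the edgeR test, with a median of -0.23. At an unadjusted p under 0.05, 1 was higher and 5 were lower, and DESeq2 called 5 lower and none higher. Scaled by library size alone, 3 were lower and 1 higher. Asns, the asparagine synthetase gene, fell from 103 and 111 CPM to 42.7 and 55.6 CPM (log2 fold change -1.12, SE 0.13, edgeR adjusted p = 1.22e-05). Atf4 itself fell from 449 and 441 to 370 and 360 CPM (-0.28, SE 0.05), and Ppp1r15a, which reverses the block on translation, from 890 and 869 to 695 and 772 CPM (-0.26, SE 0.05). The other 2 were Ddit3 (CHOP) at -0.58 and Ppp1r15b at -0.21, chosen after their values were seen. Both of these calls were lost when scaled by library size alone (-0.53 and -0.15), without fl/fl library 1 (-0.73 and -0.19) and in the absence of fl/fl library 2 (-0.44 and -0.25). Ddit3 was also lost under the GC content offset (-0.49) and Ppp1r15b under the length offset (-0.15).

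Of 25 genes of ER-associated degradation, 3 rose and 1 fell, against 8.50% and 9.89% of all genes tested, with a median of 0.02. Derl3, a derlin of the retrotranslocation channel that is typical of secretory cells and also stands in the plasma cell list, had 5 counts in each fl/fl library and 38 and 55 in KO (log2 fold change 3.20, SE 0.60, edgeR adjusted p = 0.0014). With so few counts in fl/fl, Derl3 passed the filter on low counts only through KO, so its call rests on the group where it was high. DESeq2 called 2 genes of this list higher and 2 lower. Edem2, which trims mannose from misfolded glycoproteins, rose by 0.71, a call lost without fl/fl library 1 (0.88) or 2 (0.53) and under the GC content offset (0.59). Aup1, chosen after its values were seen, rose by 0.25, was at -0.016 under the GC content offset, and was no longer called without fl/fl library 1 (0.23) or 2 (0.25), in the absence of KO library 1 (0.16) or under the length offset (0.14). The ubiquitin ligase gene Rnf139 fell from 123 and 136 CPM to 75.7 and 65.5 CPM (-0.88, SE 0.10), and the most abundant member, the segregase gene Vcp, had a log2 fold change of -0.0043 that did not pass the threshold and was 0.050 when scaled by library size alone. Of 25 genes of translocation into the ER, 1 rose and 1 fell, with a median of -0.02: Ssr2, a translocon-associated protein, rose by 0.61, and Sec62 fell by 0.27 on the log2 scale. The Ssr2 call was lost without fl/fl library 2 at 0.50. That of Sec62 was lost without fl/fl library 1 at -0.20, when scaled by library size alone at -0.22 and under the GC content offset at -0.12.

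**Figure D4:**
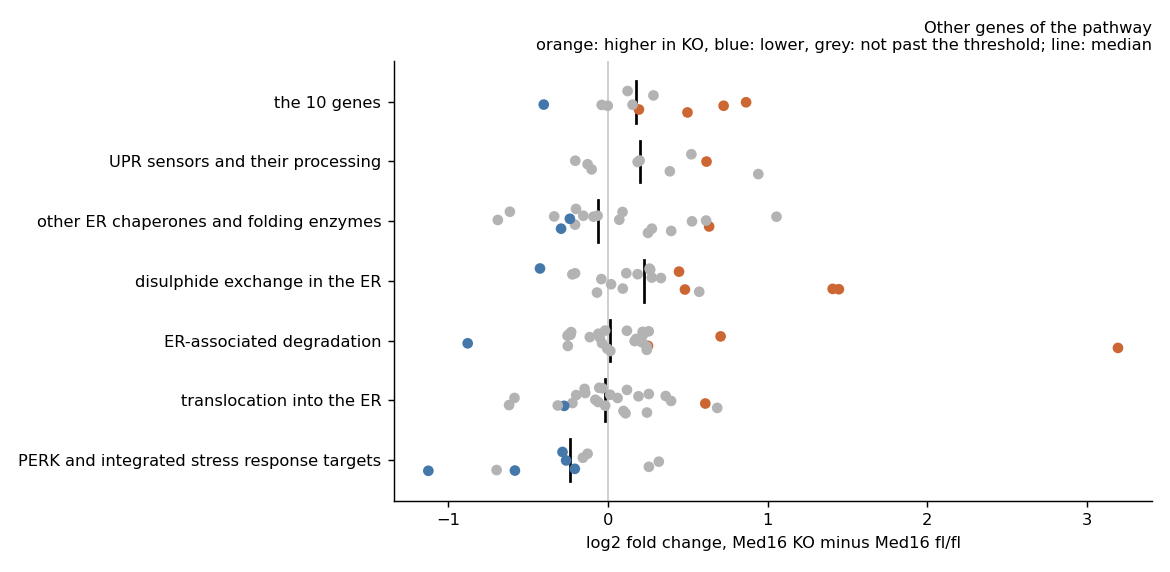
Log2 fold change in Med16 KO against Med16 fl/fl (horizontal axis) of every tested gene of the 10 and of the 6 further ER lists (1 row each, points spread vertically for legibility), with the median as a line. Derl3 at 3.20, Creld1 at 1.45 and Txndc5 at 1.41 are the highest points, and Asns at -1.12 is the lowest. Derl3 passed the filter on low counts only through KO.

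Outside the 10 genes, an ERSE stood in the windows of 33 genes, of which 10 were tested. Among these Derl3 was higher and Canx and Hnrnpa3, which encodes an RNA-binding protein, were lower, and the median was -0.16 (log2). Over all genes tested, 8.50% were called higher and 9.89% lower. The Hnrnpa3 call, at -0.39, was lost without fl/fl library 2 at -0.22, when scaled by library size alone at -0.33 and under the GC content offset at -0.19. Of 8 tested genes with an ERSE-II, 1 was called, Rbm39, a splicing factor gene, at -0.30 (-0.17 and no longer called under the GC content offset). Hnrnpa3 and Rbm39 were chosen after their values were seen. Of the 4 members with an ERSE, Hspa5 was called lower and Calr higher, while Hsp90b1 and Creld2 were not called. The calls of Calr and Canx were lost under the GC content offset (0.17 and -0.13), and Derl3 passed the filter on low counts only through KO. Control through the ERSE was not tested.

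The genes whose pattern over the 4 libraries was most like that of Hspa5 were Tmcc2, Cks1b, Snx22, Ank1 and Mppe1, out of 5930 genes with a mean of at least 20 CPM. Likeness was the root mean square distance between log2 CPM centred on each gene's mean, and it ranged from 0.00851 for Tmcc2 to 0.0118 for Mppe1. Tmcc2 stood at 3504, 3443, 2617 and 2652 CPM (both fl/fl libraries first, then both KO libraries). With only 4 libraries in 2 groups, such likeness rests mostly on the size of the difference between genotypes.

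Markers of some other cells, though not of all, were also higher in KO. In the plasma cell list 6 of 11 tested genes were higher in KO and 2 lower by the edgeR test (7 and 2 at an unadjusted p under 0.05, 4 and 2 by DESeq2). Derl3, among those higher, passed the filter on low counts only through KO. Ighm rose from 681 and 656 CPM to 3154 and 3159 CPM, Igkc from 218 and 217 to 843 and 888 CPM and Jchain from 62.3 and 57.9 to 302 and 301 CPM. The heavy chain gene Ighg2b, chosen after its values were seen, fell by 4.05 on the log2 scale. Igha, also chosen after its values were seen, stood at 63.4 and 58.7 CPM in fl/fl and at 27.2 and 36.2 CPM in KO. Some immunoglobulin genes share similar sequence, so counts of the IgG genes such as Ighg2b are uncertain. Of the defining plasma cell markers Mzb1 had 0, 0, 0 and 1 counts and Tnfrsf17 had 1, 2, 2 and 7 counts in the same order. Sdc1 had 31, 31, 59 and 70 counts and Prdm1 had 16, 10, 40 and 40. These 4 were chosen after their values were seen. In the promyelocyte list 8 of 9 genes were higher in KO and none lower by the edgeR test (9 and 0 at an unadjusted p under 0.05, 8 and 0 by DESeq2). Mpo rose from 1187 and 1183 CPM to 2834 and 2952 CPM, and none of the 9 was at 0 in all libraries.

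In the megakaryocyte list 10 of 11 tested genes were higher and none lower (10 and 0 at an unadjusted p under 0.05, 6 and 0 by DESeq2), and the list summed to 113 and 99.9 CPM in fl/fl and to 250 and 245 CPM in KO. The count of higher genes was 6 without fl/fl library 1 and 5 without library 2. The 12 erythroid markers went mostly the other way, with 8 lower and 3 higher. The transferrin receptor gene Tfrc was at -1.02 and the band 3 gene Slc4a1 at -0.41, whereas the most abundant, the alpha globin gene Hba-a1, rose from 67658 and 64283 CPM to 71874 and 80704 CPM (0.21, edgeR adjusted p = 0.00059). The Hba-a1 call was lost with DESeq2 (0.20), under the GC content offset (-0.0075) and with the spread set to 0.2 (0.21), and its value was 0.11 without KO library 2. Its near-identical copy Hba-a2, chosen after its values were seen, stood at 5595 and 6110 CPM in fl/fl and at 8670 and 7217 CPM in KO, and how reads were split between the copies is uncertain. B cell markers summed to 294 and 314 CPM in fl/fl and 286 and 298 CPM in KO. Late neutrophil markers summed to 13437 and 13273 CPM in fl/fl and 16902 and 17213 CPM in KO, monocyte and macrophage markers to 779 and 774 and then 881 and 876 CPM, and those of stroma and endothelium to 148 and 155 and then 249 and 297 CPM. Sums were 1011 and 938 and then 936 and 959 CPM for eosinophils, basophils and mast cells, and 17.0 and 15.1 and then 22.7 and 18.2 CPM for T and NK cells. The part of these cells in the changes of Xbp1, Sdf2l1, Pdia4, Calr and Hspa5 was not tested.

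**Figure D5:**
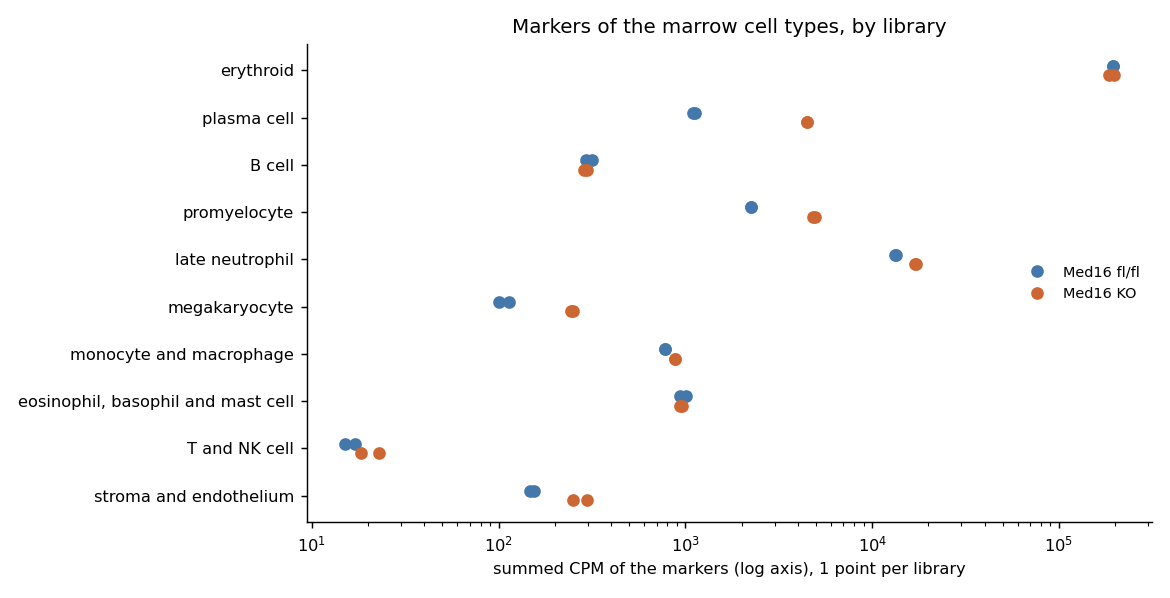
Summed CPM of the markers of each marrow cell type (log axis), 1 point per library, fl/fl in blue and KO in orange. Plasma cell markers lie at 1127 and 1091 CPM in fl/fl and at 4451 and 4494 CPM in KO, promyelocyte markers at 2244 and 2232 and then at 4794 and 4932 CPM, and B cell markers overlap. Most of the plasma cell sum is Ighm, Igkc and Jchain.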

How the data were processed

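Reads were counted per gene by the authors, and the deposited values are whole-number counts, 1 table per library. Per the submitters' processing notes, the tools were HISAT2 2.1.0 and HTSeq 0.12.4, with FastQC 0.11.7, HOMER and DESeq2 also named, and the build was GRCm39. Neither the annotation release nor the strand setting is given in the sources used here. The 5 rows that name no gene held 67.3% to 67.7% of the reads and entered neither library sizes nor tests.

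The tests used edgeR 4.0.16 under R 4.3.3: filterByExpr by genotype, TMM scaling and the two-sided quasi-likelihood test of Med16 KO against Med16 fl/fl, adjusted by Benjamini-Hochberg over the 13052 genes tested and called under 0.05. The fitted common spread (biological coefficient of variation) was 0.125. CPM are TMM-scaled. The SE is the size of the log2 fold change over the square root of F. At these depths a count of 0 allows up to 3 counts, or 0.416 to 0.444 CPM before TMM scaling. Poisson intervals and this limit cover counting error only. The scripts were tested on simulated data with known changes. DESeq2 1.42.0 served as an alternative.

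Lists were described by counts and medians, with no set test. The members and lists were chosen with earlier results of these data known. Genes named are all 10 members, Med16, the 5 nearest to Hspa5 and, from each list, the 3 with the smallest adjusted p and the most abundant, of which several from the marker lists are not printed. Any other gene named is marked where it appears. Exon lengths, overlaps and GC content came from GENCODE M21 (GRCm38), matched by identifier for 12844 (98.4%) of the tested genes, and promoter sequences from RefSeq (GRCm38.p6), matched by symbol. Both are older than the build of the counts.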

Additional observations from a re-analysis of the deposited data

How the results depend on the processing

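Each value was recomputed under 13 alternatives. The fall of Hspa5 kept its direction in all of them and its call in 12. When the spread was set to 0.2, no member was called higher or lower (0 and 0): Hspa5 was at -0.40, Xbp1 at 0.50, Sdf2l1 at 0.87, Pdia4 at 0.73 and Calr at 0.19, and 620 genes were called, 331 higher and 289 lower. That setting called 0 genes in the lists of sensors, other chaperones and translocation and 0 falls in disulphide exchange and ER-associated degradation, with 2 and 1 rises in those, and 1 fall among PERK and ATF4 targets.

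Fits without 1 library called 1158 to 3998 genes (454 to 1839 higher, 704 to 2172 lower) and 1 to 4 of the 10 genes higher, 1 in the absence of fl/fl library 2 and 2 in that of library 1, and they assume that the lone library varies like those of the other genotype. In these fits Xbp1 ranged from 0.39 to 0.58, Sdf2l1 from 0.75 to 0.96, Pdia4 from 0.59 to 0.84, Calr from 0.10 to 0.27, Hspa5 from -0.43 to -0.40, Herpud1 from -0.20 to 0.084 (0.055 without fl/fl library 2), Manf from -0.13 to 0.089 (0.016 without fl/fl library 2) and Dnajb11 from -0.042 to 0.19. The counts higher ranged over 0 to 4 for sensors, 0 to 2 for other chaperones, 3 to 7 for disulphide exchange, 1 to 4 for ER-associated degradation, 0 to 4 for translocation and 0 to 1 for PERK and ATF4 targets, and the counts lower over 0 to 2, 1 to 3, 1 to 5, 0 to 2 and 3 to 6 from other chaperones onward.

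Scaled by library size alone, Herpud1 was at 0.016, Manf at 0.054, Vcp at 0.050 and Sec61g, the most abundant translocation gene, at 0.020, all positive and not called; translocation had 3 higher and 0 lower, PERK and ATF4 targets 1 and 3, and other chaperones 1 lower. With a GC content offset 732 genes were higher, Hsp90b1 was called at 0.29, Calr was not at 0.17, Sec61g was at 0.070, Aup1 at -0.016 and the globin gene Hba-a1 at -0.0075; other chaperones had 0 higher and 1 lower, and translocation 0 lower. With a transcript length offset Calr was at 0.12 and other chaperones had 0 higher. ER-associated degradation had 2 lower with DESeq2, with no filter and with either offset. With at least 5 CPM in 2 libraries Manf was at 7.48e-05. The cause of these changes was not tested.

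A replicate block by the shared numbers called 2767 genes, of which 2390 were among the 2400, and the same counts of 4 higher and 1 lower of the 10 genes; it called 2 sensors in place of 1. The difference between libraries 1 and 2 within fl/fl correlated at -0.01 across genes with that within KO, so the numbers were not taken to pair libraries. Depth limits Creld2, Sdf2l1 and Pdia4 most, the members with the fewest counts.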
